A study of Rattus norvegicus with 23 samples.

Results

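The genes that make fatty acids and put double bonds into them were followed in rat kidney cells that were exposed to an acidic medium. The set holds 10 genes, taken by name for their function, with earlier results of these data known, out of 30452 genes in the deposited count table. They supply acetyl-CoA (Acly, Acss2), make malonyl-CoA (Acaca, Acacb), build the chain (Fasn), elongate it (Elovl5, Elovl6) and desaturate it (Scd, Fads1, Fads2). All 10 were found in the table, and 9 passed the filter for sufficient counts (edgeR's filterByExpr). Acacb did not and was left out of the fits across all genes.

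NRK-52E (labelled NRKE) is an epithelial line and NRK-49F (labelled NRKF) a fibroblast line, both established from normal rat kidney. Cells grown with fetal calf serum were kept without serum for 24 h, and pH 7.4 or pH 6.0, set with HCl, was then maintained for 48 h, so that the control cells at pH 7.4 went through the same serum-free time. There were n = 6 samples of NRK-52E cells at each pH, n = 6 of NRK-49F cells at pH 7.4 and n = 5 at pH 6.0. Each line is a single established line, and no label says that the samples of a condition came from separate cultures. The paper calls its samples biological but does not state whether they were separate cultures. The p-values therefore measure only the spread between these samples, which may be technical. A further label, sample group, divides the NRK-52E samples into groups 1 and 3 and the NRK-49F samples into groups 4 and 6. What a sample group is was not given, and both pH values occur in each.

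Fatty acid synthesis starts from cytosolic acetyl-CoA, which ATP citrate lyase (Acly) cleaves from citrate and acetyl-CoA synthetase (Acss2) makes from acetate. Acetyl-CoA carboxylase turns it into malonyl-CoA, from which fatty acid synthase builds saturated chains, and elongases and desaturases of the endoplasmic reticulum then lengthen and unsaturate them. Transcription of many of these genes is driven by the sterol regulatory element-binding proteins (SREBP), encoded by Srebf1 and Srebf2, which also drive sterol synthesis. Tubule cells of the kidney are better known for burning fatty acids than for making them.

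RefSeq promoter windows of the GRCr8 build, from 250 bases before to 50 after the transcription start, were at hand for 7 of the 10 genes (Acly, Acss2, Acacb, Elovl5, Scd, Fads1 and Fads2). The windows of 4 genes are shown, picked with their values known, because of how their genes responded: Acly and Acss2 rose at pH 6.0 in NRK-52E cells and were not called in NRK-49F cells, while both neighbouring desaturase genes fell in NRK-49F cells and only Fads2 of them was called, as higher, in NRK-52E cells. They lie at chr10:85963582-85963881 (Acly, minus strand), chr3:164464453-164464752 (Acss2, plus strand), chr1:216252442-216252741 (Fads1, plus strand) and chr1:216171984-216172283 (Fads2, minus strand), and are written 5′ to 3′ along the gene's strand. Capitals mark matches on either strand to CCAAT (the box bound by NF-Y), GGGCGG (the box bound by Sp1), CACGTG (an E-box) or TCACNCCAC (a core of the sterol regulatory element).
Acly: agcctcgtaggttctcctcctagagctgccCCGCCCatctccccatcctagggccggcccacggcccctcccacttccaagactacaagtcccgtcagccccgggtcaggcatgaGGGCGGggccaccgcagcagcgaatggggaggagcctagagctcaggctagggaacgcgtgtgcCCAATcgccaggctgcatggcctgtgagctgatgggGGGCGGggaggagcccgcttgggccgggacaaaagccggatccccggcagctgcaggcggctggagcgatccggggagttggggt
Acss2: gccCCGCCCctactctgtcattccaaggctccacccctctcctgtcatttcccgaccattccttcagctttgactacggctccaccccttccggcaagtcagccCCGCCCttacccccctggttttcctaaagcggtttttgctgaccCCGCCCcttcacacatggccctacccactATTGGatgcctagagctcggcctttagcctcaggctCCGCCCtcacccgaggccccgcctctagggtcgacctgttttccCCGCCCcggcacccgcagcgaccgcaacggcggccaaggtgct
Fads1: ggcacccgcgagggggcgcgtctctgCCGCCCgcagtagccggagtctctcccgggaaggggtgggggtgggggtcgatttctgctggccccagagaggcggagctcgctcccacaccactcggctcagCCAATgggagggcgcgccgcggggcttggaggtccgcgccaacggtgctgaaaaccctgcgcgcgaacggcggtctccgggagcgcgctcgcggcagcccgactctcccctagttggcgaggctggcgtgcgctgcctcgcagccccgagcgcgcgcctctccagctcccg
Fads2: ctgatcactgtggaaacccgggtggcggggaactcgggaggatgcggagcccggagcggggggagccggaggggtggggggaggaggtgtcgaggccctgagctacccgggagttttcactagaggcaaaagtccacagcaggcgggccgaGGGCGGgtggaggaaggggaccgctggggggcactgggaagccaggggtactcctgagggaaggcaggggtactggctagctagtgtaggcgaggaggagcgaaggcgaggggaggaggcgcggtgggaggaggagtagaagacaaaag

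The window of Acly held 1 CCAAT and 3 GGGCGG matches, that of Acss2 1 and 5, that of Fads1 1 and 1, and that of Fads2 0 and 1. Of the others, Elovl5 held 2 CCAAT matches and 1 E-box, Acacb 1 CCAAT match, and Scd none of the 4 motifs. Among 33469 rat promoter windows of the same length, 37.5% held CCAAT, 33.1% GGGCGG, 6.42% CACGTG and 1.12% TCACNCCAC. None of the 7 windows held TCACNCCAC, which says only that these letters are not in these windows.

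Total counts per sample ranged from 16412564 to 34250535. Levels are given as FPM, the fragment counts divided by library sizes that edgeR's TMM method had scaled (edgeR's cpm function). They are not divided by gene length, so they are compared between samples of the same gene. The exception is the summed level of markers below, to which long genes add more. Of 8 epithelial markers in the table, Krt8 and Krt7 were expressed in NRK-52E cells at pH 7.4 (means of 499 and 21.8 FPM), while Cdh1, Epcam, Krt18, Cldn4, Cldn7 and Esrp1 had means of at most 0.160 FPM, so most defining epithelial markers were at or near 0. Krt8 was also present in NRK-49F cells (mean of 839 FPM at pH 7.4). Of 10 fibroblast markers, 8 were lower and Col3a1 was higher in NRK-52E than in NRK-49F cells at pH 7.4 (edgeR), and Thy1 was not tested. Col3a1 had means of 6149 and 1212 FPM, Vim 739 and 7619, Pdgfrb 41.4 and 84.6 and Col1a1 58.1 and 5877. Dcn had no count in any NRK-52E sample and a mean of 4.00 FPM in the fibroblast line at pH 7.4. Thy1 did not separate the lines, as it had no count in any NRK-52E sample or in the fibroblasts at pH 7.4. At pH 6.0 a fibroblast sample held at most 4 counts of Thy1. The summed level of the 10 markers, in which Col3a1 made up most of the NRK-52E value, was 5631 to 8856 FPM in NRK-52E cells at pH 7.4, 2156 to 3534 FPM at pH 6.0, and 19059 to 21349 and 14199 to 15476 FPM in NRK-49F cells. In the NRK-52E sample A021, the fibroblast genes Pdgfra and Vcam1 reached 1.54% and 1.47% of their mean in NRK-49F cells at pH 7.4, against at most 0.0342% and 0.0321% in any NRK-52E sample at pH 6.0. The part of these markers in the results was not tested. In bulk RNA, fewer cells of a type and less RNA per cell cannot be told apart.

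In NRK-52E cells at pH 6.0, 5 of the 9 tested genes were higher than at pH 7.4 (Acss2, Fasn, Acly, Scd and Fads2), Elovl6 was lower, and Acaca, Elovl5 and Fads1 were not called (quasi-likelihood test of edgeR, p adjusted by Benjamini-Hochberg over 14777 genes, threshold 0.05). Among all genes tested, 24.7% were called higher and 36.6% lower. The median log2 fold change of the 9 genes was 0.73, against -0.12 for all genes. In NRK-49F cells at the same pH, only Elovl5 of the 9 was higher, Fads2, Fads1 and Fasn were lower, and 5 were not called, with 14.5% of all genes called higher and 14.4% lower. There the median log2 fold change was -0.11 for the 9 genes and 0.00 for all genes.

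**Figure D1:**
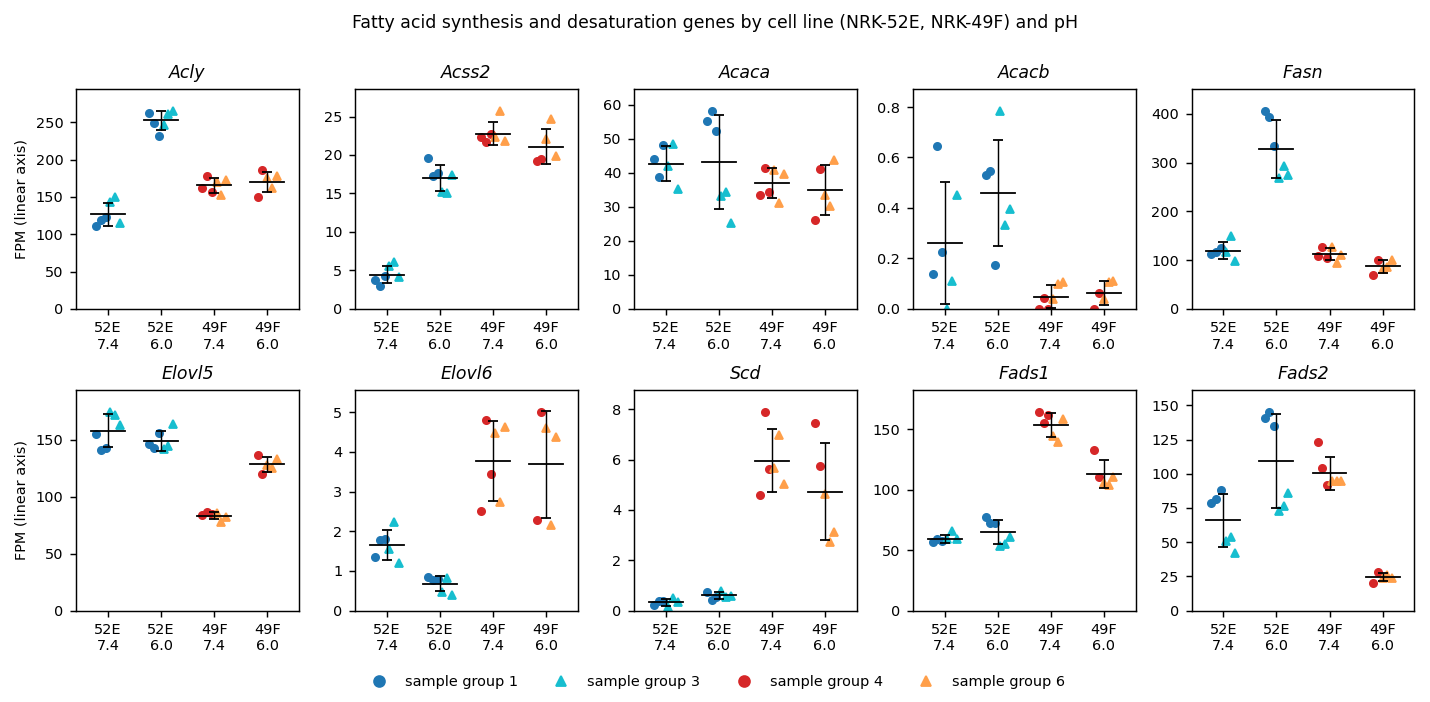
Levels of the 10 genes in FPM on linear axes from 0, one panel per gene, for NRK-52E (52E) and NRK-49F (49F) cells at pH 7.4 and pH 6.0. Points are samples, coloured by sample group, and bars give mean ± SD (n = 6, 6, 6 and 5). Fasn reached 268 to 407 FPM in NRK-52E cells at pH 6.0 and at most 149 FPM in every other sample, while Fads2 in NRK-49F cells at pH 6.0 stayed between 20.03 and 28.1 FPM, below all samples of the other conditions.

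The genes that supply acetyl-CoA rose in NRK-52E cells and were not called in NRK-49F cells. Acly (ENSRNOG00000016924, chromosome 10) ranged from 111 to 149 FPM in NRK-52E cells at pH 7.4 (median 121) and from 232 to 266 FPM at pH 6.0 (median 255). No pH 7.4 sample reached the lowest pH 6.0 sample, and the mean went from 127 ± 15.8 to 253 ± 12.8 FPM (SD, n = 6 each), which is a log2 fold change of 1.00 with a standard error (SE) of 0.077 (edgeR, adjusted p = 1.09e-10). In NRK-49F cells Acly ranged from 152 to 177 FPM at pH 7.4 (median 167), and the 5 samples at pH 6.0 had 150.5, 185, 175, 161 and 178 FPM. These groups overlapped over nearly their whole range, and the log2 fold change was 0.04 (edgeR, SE 0.080, adjusted p = 0.763). NRK-52E cells thus held less Acly RNA than NRK-49F cells at pH 7.4 and more at pH 6.0, without overlap at either pH.

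Acss2 (ENSRNOG00000018755, chromosome 3) had the largest fold change of the 9 genes in NRK-52E cells. It ranged from 2.96 to 6.11 FPM at pH 7.4 (median 4.24) and from 15.1 to 19.6 FPM at pH 6.0 (median 17.3). The mean was 3.82-fold higher at pH 6.0, with a log2 fold change of 1.94 (edgeR, SE 0.13, adjusted p = 1.27e-11), and no sample of one pH came near the other. In NRK-49F cells Acss2 was already at 21.7 to 25.8 FPM at pH 7.4 (median 22.3) and at 19.3, 19.5, 22.03, 24.7 and 19.9 FPM at pH 6.0, a log2 fold change of -0.11 (edgeR, SE 0.13, adjusted p = 0.557). The order of the means was NRK-52E at pH 7.4, NRK-52E at pH 6.0, NRK-49F at pH 6.0 and NRK-49F at pH 7.4, where the lowest mean stood apart and the ranges of both lines overlapped at pH 6.0.

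Of the carboxylases, Acaca (acetyl-CoA carboxylase 1 in the common protein name, ENSRNOG00000034013, chromosome 10) was not called in either line. In NRK-52E cells it ranged from 35.1 to 48.5 FPM at pH 7.4 (median 42.9) and from 25.3 to 58.3 FPM at pH 6.0 (median 43.4), so the spread between samples was larger at pH 6.0. The log2 fold change was 0.01 (edgeR, SE 0.17, adjusted p = 0.956), a mean that joins sample groups which lay apart, as described below. In NRK-49F cells Acaca ranged from 31.1 to 41.6 FPM at pH 7.4 (median 37.1) and had 26.1, 41.3, 33.5, 30.2 and 43.7 FPM at pH 6.0, a log2 fold change of -0.08 (edgeR, SE 0.18, adjusted p = 0.784). The ranges of all 4 conditions overlapped.

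Acacb (the mitochondria-associated carboxylase, ENSRNOG00000000658, chromosome 12) was hardly detected. At pH 7.4 the NRK-52E samples held 0 to 12 counts, a mean of 0.262 ± 0.242 FPM, and at pH 6.0 they held 6 to 15 counts, a mean of 0.461 ± 0.210 FPM (SD, n = 6 each). The ranges overlapped, and the difference did not pass a two-sided exact permutation test (p = 0.154, and 0.307 adjusted over 2 tests). In NRK-49F cells no sample had more than 3 counts at either pH, the level taken as the detection limit, so no fold is given (exact permutation test, p = 0.563, adjusted p = 0.563).

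Fasn (fatty acid synthase, ENSRNOG00000045636, chromosome 10) had overlapping levels in both lines at pH 7.4 and stood far apart at pH 6.0. In NRK-52E cells it ranged from 97.4 to 149 FPM at pH 7.4 (median 117) and from 268 to 407 FPM at pH 6.0 (median 314). All pH 6.0 samples lay above all pH 7.4 samples, and the mean rose 2.74-fold, a log2 fold change of 1.45 (edgeR, SE 0.12, adjusted p = 4.51e-10). In NRK-49F cells Fasn ranged from 94.8 to 128 FPM at pH 7.4 (median 109.6), and the 5 samples at pH 6.0 had 69.6, 101, 81.9, 85.0 and 101 FPM. The log2 fold change was -0.36 (edgeR, SE 0.13, adjusted p = 0.0363), and the ranges overlapped. This call was lost when A040, A042, A051, A053, A054 or A055 was left out (adjusted p = 0.0790, 0.114, 0.0809, 0.0513, 0.0817 and 0.0706 in edgeR's test), and within sample groups 4 and 6, each filtered, scaled and fitted alone here and below, the log2 fold change was -0.42 and -0.33 (adjusted p = 0.255 and 0.161, edgeR).

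Of the elongases, Elovl5 was called only in NRK-49F cells and Elovl6 only in NRK-52E cells. Elovl5 (which elongates polyunsaturated chains, ENSRNOG00000006331, chromosome 8) ranged in NRK-52E cells from 141 to 174 FPM at pH 7.4 (median 159) and from 141 to 164 FPM at pH 6.0 (median 145). These ranges overlapped, with a log2 fold change of -0.08 (edgeR, SE 0.064, adjusted p = 0.271). In NRK-49F cells Elovl5 was tightly grouped at 77.9 to 86.2 FPM at pH 7.4 (median 84.1) and at 137, 119.8, 128, 125 and 133 FPM at pH 6.0. Every sample at pH 6.0 was above every sample at pH 7.4, a log2 fold change of 0.63 (edgeR, SE 0.067, adjusted p = 1.60e-07). The order of the means was NRK-49F at pH 7.4, NRK-49F at pH 6.0 and then both NRK-52E conditions, which overlapped each other but not the fibroblasts.

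Elovl6 (which elongates saturated and monounsaturated chains, ENSRNOG00000048949, chromosome 2) was expressed at low levels, with 8 to 48 counts per NRK-52E sample. It ranged from 1.19 to 2.24 FPM at pH 7.4 (median 1.66) and from 0.395 to 0.850 FPM at pH 6.0 (median 0.775) in NRK-52E cells. The groups did not overlap, and the log2 fold change was -1.26 (edgeR, SE 0.27, adjusted p = 0.000363). In NRK-49F cells Elovl6 ranged from 2.52 to 4.80 FPM at pH 7.4 (median 3.96) and had 2.29, 5.00, 4.60, 2.17 and 4.39 FPM at pH 6.0, a log2 fold change of -0.03 (edgeR, SE 0.25, adjusted p = 0.944). Elovl6 was thus the only gene of the 9 that was called lower in NRK-52E cells.

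Among the desaturases, Scd (stearoyl-CoA desaturase, which makes monounsaturated fatty acids, ENSRNOG00000013552, chromosome 1) was barely detected in the epithelial line, where a sample held 3 to 10 counts at pH 7.4 and 8 to 19 counts at pH 6.0. Its level ranged from 0.137 to 0.491 FPM at pH 7.4 (median 0.358) and from 0.437 to 0.786 FPM at pH 6.0 (median 0.572). The ranges overlapped slightly, and the log2 fold change was 0.94 (edgeR, SE 0.32, adjusted p = 0.0153). Without A021, the sample with the most signal of fibroblast genes, it was 0.82 (edgeR, adjusted p = 0.0441), and within sample group 3 alone it was 1.10 and not called (edgeR, adjusted p = 0.0860). In NRK-49F cells Scd ranged from 4.58 to 7.87 FPM at pH 7.4 (median 5.63) and had 7.44, 5.73, 4.64, 2.71 and 3.11 FPM at pH 6.0, a log2 fold change of -0.34 (edgeR, SE 0.23, adjusted p = 0.301). The highest values at pH 6.0 were those of sample group 4 and the other 3 those of sample group 6. Reads that map to several places were counted, so Scd may hold reads of its paralogs Scd2 and Scd4.

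Fads1 (the delta-5 desaturase, ENSRNOG00000020480, chromosome 1) ranged in NRK-52E cells from 56.4 to 66.1 FPM at pH 7.4 (median 59.0) and from 53.6 to 77.4 FPM at pH 6.0 (median 66.7). The ranges overlapped, and the log2 fold change of 0.13 was not called (edgeR, SE 0.088, adjusted p = 0.190). In NRK-49F cells it ranged from 139 to 164 FPM at pH 7.4 (median 157) and had 133, 110.2, 106, 104 and 110.4 FPM at pH 6.0. All samples at pH 6.0 were below all samples at pH 7.4, a log2 fold change of -0.45 (edgeR, SE 0.092, adjusted p = 0.000614). Within sample group 4 alone, with 3 samples at pH 7.4 and 2 at pH 6.0, the log2 fold change of -0.40 was not called (edgeR, adjusted p = 0.130), and within sample group 6 it was -0.48 (edgeR, adjusted p = 0.0114).

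Fads2 (the delta-6 desaturase, which opens the pathway to long polyunsaturated fatty acids, ENSRNOG00000020440, chromosome 1) moved in opposite directions in both lines. In NRK-49F cells it ranged from 91.5 to 123 FPM at pH 7.4 (median 94.6) and had only 20.03, 28.1, 23.8, 25.9 and 23.6 FPM at pH 6.0. The mean went from 101 ± 12.1 (SD, n = 6) to 24.3 ± 3.01 FPM (SD, n = 5), 4.14-fold lower, with a log2 fold change of -2.05 (edgeR, SE 0.21, adjusted p = 6.75e-08) and with similar values of -2.15 and -1.96 in sample groups 4 and 6. In NRK-52E cells Fads2 ranged from 41.9 to 88.5 FPM at pH 7.4 (median 66.4) and from 73.0 to 145 FPM at pH 6.0 (median 111). The log2 fold change was 0.73 (edgeR, SE 0.18, adjusted p = 0.00156). These ranges overlapped because the sample groups stood apart, and within each sample group they did not. Group 1 had 78.8 to 88.5 FPM at pH 7.4 and 135 to 145 FPM at pH 6.0, while group 3 had 41.9 to 54.05 and 73.0 to 86.3 FPM. The log2 fold change was 0.84 in group 1 and 0.76 in group 3 (adjusted p = 1.06e-06 and 0.000428, edgeR).

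**Figure D2:**
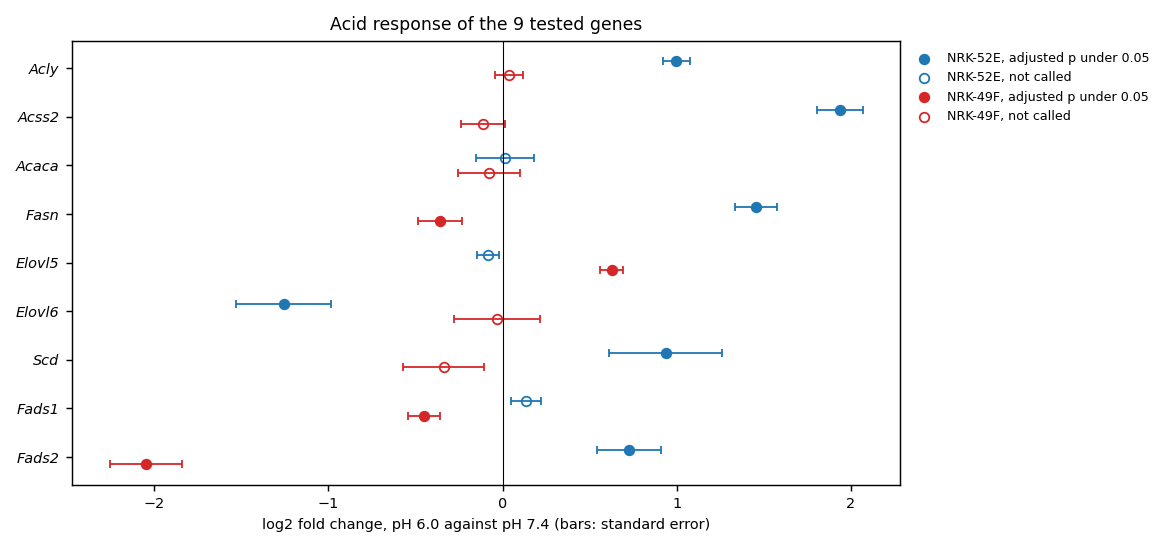
Log2 fold change at pH 6.0 against pH 7.4 (x axis) of the 9 tested genes, in NRK-52E (blue) and NRK-49F cells (red), with bars for the standard error. Filled points passed the threshold (edgeR, adjusted p under 0.05). Fads2 lay at 0.73 in NRK-52E and at -2.05 in NRK-49F cells, and Acss2 at 1.94 and -0.11.

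Whether the lines responded differently was tested directly, by subtracting the log2 fold change of NRK-49F cells from that of NRK-52E cells. It was called for 8 of the 9 genes, higher for Fads2, Acss2, Fasn, Scd, Acly and Fads1 and lower for Elovl5 and Elovl6, where 16.8% of all genes were called higher and 24.7% lower. The largest difference was that of Fads2 with 2.78 (edgeR, SE 0.28, adjusted p = 3.51e-08), followed by Acss2 with 2.05 (edgeR, SE 0.18, adjusted p = 7.86e-09) and Fasn with 1.81 (edgeR, SE 0.18, adjusted p = 2.55e-08). Scd differed by 1.28, Acly by 0.96 and Fads1 by 0.59, while Elovl5 differed by -0.71 and Elovl6 by -1.23. Acaca differed by 0.09 (edgeR, SE 0.24, adjusted p = 0.798). Each of the 8 calls was kept whichever of the 23 samples was left out, with DESeq2, without the filter, under each other scaling and with the sample group as a block. Since no sample group holds both lines, cell line and sample group cannot be told apart.

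Levels of the lines also differed at the same pH. At pH 7.4, NRK-52E cells had higher Elovl5 and lower Acly, Acss2, Elovl6, Scd, Fads1 and Fads2 than NRK-49F cells, while Acaca and Fasn were not called, with 35% of all genes called higher and 33.9% lower. The log2 difference (NRK-52E minus NRK-49F) was -4.22 for Scd, -2.35 for Acss2, -1.37 for Fads1 and -1.19 for Elovl6, and 0.92 for Elovl5. At pH 6.0, 4 genes were higher in NRK-52E cells (Fads2, Fasn, Acly and Elovl5) and 4 lower (Scd, Elovl6, Fads1 and Acss2), against 36.6% and 38.9% of all genes. The log2 difference at pH 6.0 was 2.17 for Fads2, 1.91 for Fasn and 0.57 for Acly, and -2.94 for Scd. Fasn thus went from 0.09 (not called, adjusted p = 0.501, edgeR) to 1.91, and Acly and Fads2 from lower to higher in the epithelial line.

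The difference of Acss2 at pH 6.0 was small, at -0.31 (edgeR, SE 0.13, adjusted p = 0.0337). It was not called without A036, A037, A054 or A055 (adjusted p = 0.0704, 0.0721, 0.0642 and 0.108, edgeR). Of the fits with 1 sample left out, only that without A038 called Acaca higher in NRK-52E cells at pH 6.0 (0.42, adjusted p = 0.0206, edgeR). Scaling by total counts moved the median of all genes in the comparison of the lines to 0.21 at pH 7.4 and 0.19 at pH 6.0, from 0.02 and -0.02 with TMM. With that scaling, 5 genes were higher and 3 lower at pH 6.0, as Acaca was called and Acss2 was not, and at pH 7.4 the lower levels of Acly and Fads2 were not called.

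Whether the acid response of these genes was the same in both sample groups was tested by the response in group 3 minus that in group 1 of NRK-52E cells. It was smaller in group 3 for 3 of the 9 genes, Fads1, Acss2 and Acaca, and 10.6% of all genes differed in either direction. Fold changes within a group come from that group scaled alone, while FPM are scaled over all 23 samples, so that both need not match. Fads1 rose in group 1, from 57.7 ± 1.37 to 74.1 ± 2.88 FPM (SD, n = 3 each), with a log2 fold change of 0.44 (edgeR, adjusted p = 0.000237). In group 3 it went from 61.3 ± 4.12 to 56.5 ± 3.98 FPM (SD, n = 3 each), with a log2 fold change of -0.04 and no call (edgeR, adjusted p = 0.774). The difference between the groups was -0.48 (edgeR, SE 0.12, adjusted p = 0.0106) and was called whichever sample was left out, but not with scaling by total counts (-0.41, adjusted p = 0.0575, edgeR).

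Acss2 rose in both groups, by 2.38 on the log2 scale in group 1 and by 1.67 in group 3. Its difference of -0.71 (edgeR, SE 0.20, adjusted p = 0.0284) was not called without A021, A022, A024, A033, A034, A036 or A037 (adjusted p between 0.0574 and 0.0859, edgeR). Acaca had 52.4 to 58.3 FPM in group 1 and 25.3 to 34.4 FPM in group 3 at pH 6.0, without overlap, after 38.7 to 48.1 and 35.1 to 48.5 FPM at pH 7.4. Within group 1 it rose by 0.42 (edgeR, adjusted p = 0.00176), and within group 3 its log2 fold change was -0.36 (edgeR, adjusted p = 0.0741). The difference of -0.78 had an adjusted p of 0.0497 (standard error 0.25, edgeR). It was not called under any other scaling or without the filter. Of the fits with 1 sample left out, it was called only in those without A035, A042, A043, A052, A055 or A056. It had an adjusted p between 0.0501 and 0.124 in edgeR's test when any other sample was left out. The difference of Fasn, which reached 378 ± 38.4 FPM in group 1 and 279 ± 12.9 FPM in group 3 at pH 6.0 (SD, n = 3 each), was -0.47 and not called (edgeR, adjusted p = 0.180).

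**Figure D3:**
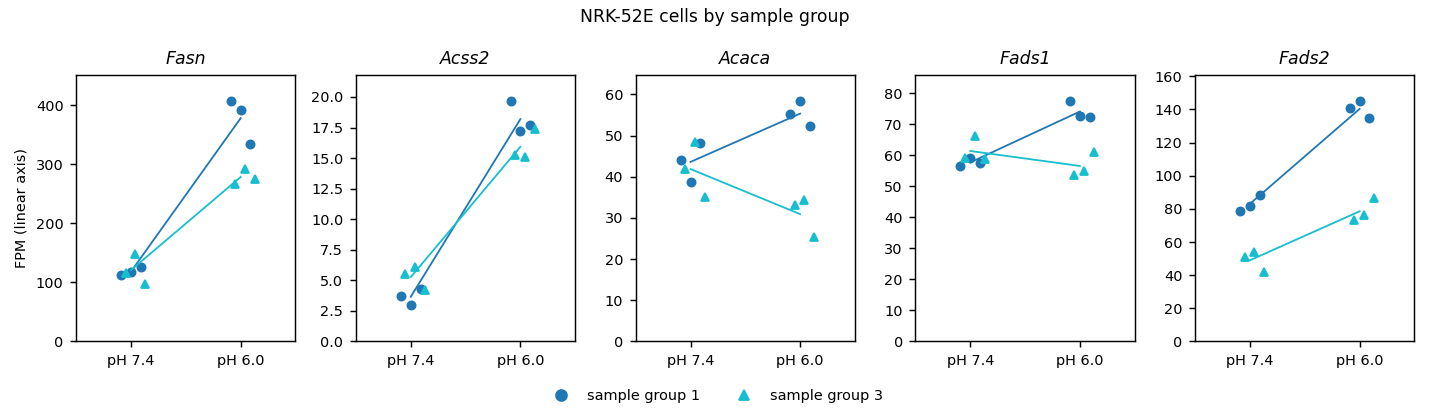
Levels of Fasn, Acss2, Acaca, Fads1 and Fads2 in FPM (linear axes from 0) in NRK-52E cells at pH 7.4 and pH 6.0. Circles are samples of sample group 1 and triangles of sample group 3 (n = 3 each), and lines join the group means. Acaca went from 43.6 to 55.3 FPM in group 1 and from 41.9 to 30.9 FPM in group 3, while every Fads2 value of group 1 lay above those of group 3 at the same pH.

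In NRK-49F cells, none of the 9 genes differed in response between sample groups 6 and 4 (edgeR), and of all genes 0.00% were called. Without adjustment, 1 of the 9 genes was under a threshold of 0.05 in edgeR's test, as were 596 genes in all, which are 4.03% of those tested. The 1 gene was Scd, with -0.89 (edgeR, adjusted p = 0.997). No other tool was run on this contrast, and group 4 held only 2 samples at pH 6.0.

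The sterol branch, which shares its SREBP control with fatty acid synthesis, rose for most of its genes in NRK-52E cells. Of 19 genes of sterol synthesis from acetoacetyl-CoA thiolase (Acat2) to the last reductases, 16 were higher at pH 6.0 and none lower. Of all genes, 24.7% were called higher and 36.6% lower. The median log2 fold change of the sterol genes was 1.58, against 0.73 for the 9 fatty acid genes and -0.12 for all genes. The largest rises were those of Idi1 (isopentenyl diphosphate isomerase), from 8.15 ± 4.28 to 53.9 ± 18.4 FPM, Cyp51 (lanosterol demethylase), from 43.5 ± 16.2 to 228 ± 61.2 FPM, and Msmo1 (sterol methyl oxidase), from 42.7 ± 14.7 to 217 ± 57.3 FPM (SD, n = 6 each). Their log2 fold changes were 2.73, 2.39 and 2.35 (adjusted p = 2.32e-08, 1.27e-09 and 1.20e-09, edgeR). The 3 genes not called were Mvk, Nsdhl and Tm7sf2, named after their values were seen, with log2 fold changes of -0.25, -0.04 and 0.14. The highest response of a fatty acid gene, 1.94 for Acss2, lay below those of Sqle, Hmgcs1, Msmo1, Cyp51 and Idi1, which were also named after their values were seen. No test compared both lists.

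In NRK-49F cells the sterol branch had 1 gene higher and 2 lower of 19, against 14.5% and 14.4% of all genes, with a median log2 fold change of -0.02. Hsd17b7 rose by 1.01, and Cyp51 fell by 0.57 on the log2 scale (adjusted p = 0.00197 and 0.0499, edgeR). The difference between the lines was called higher in NRK-52E cells for 13 of the 19 genes and lower for none, where 16.8% of all genes were called higher and 24.7% lower. Its median was 1.49, against 0.96 for the fatty acid genes and -0.09 for all genes. In the sample groups of NRK-52E cells, 3 of the 19 differed, all with a smaller response in group 3, where 10.6% of all genes differed. Among them were Dhcr7 and Sqle, which too are named after their values were seen.

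**Figure D4:**
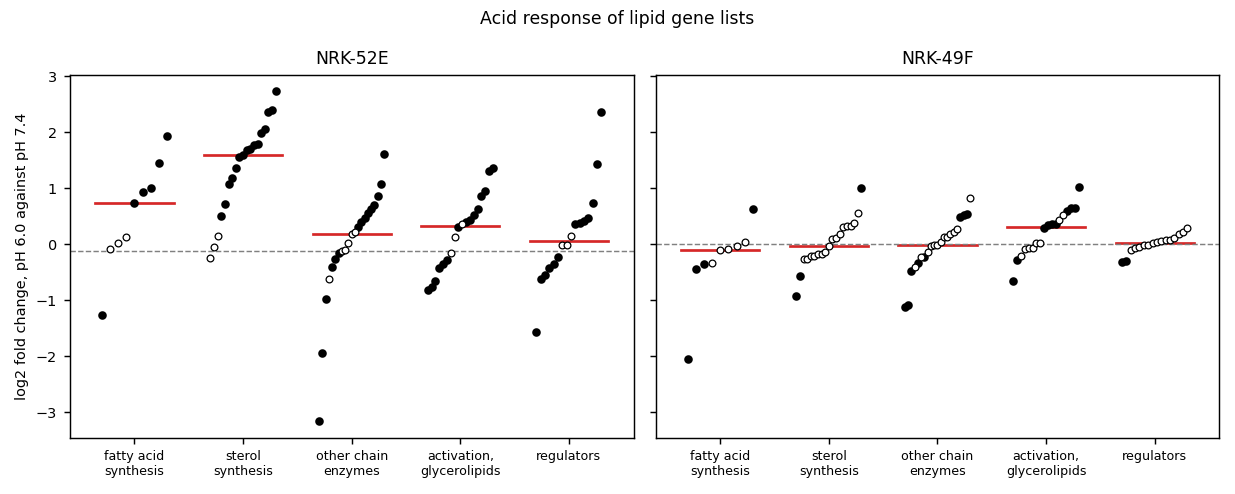
Log2 fold change at pH 6.0 against pH 7.4 (y axis) of each tested gene of 5 lists, in NRK-52E (left) and NRK-49F cells (right). Filled points passed an adjusted p under 0.05 in edgeR's test, red lines give the median of each list and the dashed line that of all genes tested. In NRK-52E cells the median was 0.73 for the fatty acid genes and 1.58 for sterol synthesis, and in NRK-49F cells it was -0.11 and -0.02.

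Of the regulators, 7 of 16 were called higher and 6 called lower in the epithelial line (median 0.06), where 24.7% and 36.6% of all genes were. None was higher and 2 were lower in NRK-49F cells (median 0.03), against 14.5% and 14.4% of all genes. Insig1, which retains the SREBP escort protein in the endoplasmic reticulum and is itself an SREBP target, stood at 124 ± 14.3 FPM in the epithelial line at pH 7.4 and rose to 636 ± 45.8 FPM (SD, n = 6 each). This was a log2 difference of 2.35 (edgeR, SE 0.099, adjusted p = 7.60e-15), and in NRK-49F cells it was -0.02 (edgeR, adjusted p = 0.921). Srebf2, the factor of sterol synthesis, went up from 213 ± 15.2 FPM to a mean of 572 ± 36.2 FPM there (SD, n = 6 each), or by 1.43 on the log2 scale, against -0.04 in NRK-49F cells. Srebf1, the factor most tied to fatty acid synthesis, rose by 0.42 in NRK-52E cells (edgeR, SE 0.14, adjusted p = 0.0144) and had 0.29 in NRK-49F cells (edgeR, adjusted p = 0.161). In NRK-52E cells it ranged from 74.7 to 137 FPM at pH 7.4 and from 99.3 to 163 FPM at pH 6.0. These ranges overlapped, unlike those of Insig1 and Srebf2. For Srebf1 the lines did not differ by the test (0.13, standard error 0.21, adjusted p = 0.655, edgeR), whereas for Insig1 and Srebf2 they differed by 2.37 and 1.47 (adjusted p = 1.14e-11 and 2.44e-09, edgeR).

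Nr1h2, a liver X receptor, was the third of the largest rises among the regulators in NRK-52E cells with 0.73. The largest falls were those of Prkag2, a subunit of the AMP-activated kinase that inhibits acetyl-CoA carboxylase, with -1.57, of Insig2 with -0.61 and of Scap, the SREBP escort protein, with -0.55. In NRK-49F cells the lower genes were Mbtps1, a protease that cleaves SREBP, with -0.32 and the kinase subunit Prkab1 with -0.29.

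Of the other enzymes of the chain, 9 of 21 tested genes were higher and 6 lower in the epithelial line (median 0.18), where 24.7% of all genes were higher and 36.6% lower. Of those that supply substrate and NADPH, Me1 (malic enzyme) rose by 1.07 on the log2 scale, from 42.6 ± 1.89 to 89.2 ± 7.13 FPM (SD, n = 6 each), and by 0.49 in NRK-49F cells, with a difference between the lines of 0.58 (edgeR, adjusted p = 2.08e-05). The citrate carrier Slc25a1 was called in neither line, with log2 fold changes of -0.11 and -0.03. Scd2, a paralog of Scd, rose by 0.56 in NRK-52E cells (edgeR, adjusted p = 0.000597), where its mean was 893 ± 143 FPM at pH 7.4 and 1315 ± 74.1 FPM at pH 6.0 (SD, n = 6 each). In NRK-49F cells Scd2 had 375 ± 63.9 FPM (SD, n = 6) and 385 ± 73.4 FPM (SD, n = 5), with a log2 fold change of 0.04 (edgeR, adjusted p = 0.880). Scd4, another paralog at 1 to 21 counts per NRK-52E sample, rose by 1.61, and Cyb5b, listed among the electron donors, by 0.86. Cyb5a of the same list, named after its values were seen, had no count in any sample. Whether the desaturases draw on Cyb5b here was not tested.

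The largest falls among these enzymes in NRK-52E cells were those of the elongation genes Elovl7, Elovl4 and Hacd2. Elovl7 fell from 2.95 ± 0.944 to 0.319 ± 0.229 FPM and Elovl4 from 1.28 ± 0.576 to 0.320 ± 0.258 FPM (SD, n = 6 each), with log2 fold changes of -3.16 and -1.94. The dehydratase gene Hacd2 had -0.98. At pH 6.0 an NRK-52E sample held only 1 to 15 counts of Elovl7 and 2 to 20 of Elovl4. Other elongation genes, named after their values were seen, were called higher there. Elovl1 rose from 280 ± 34.6 to 433 ± 28.8 FPM (SD, n = 6 each), by 0.63 on the log2 scale, Hacd4 by 0.70 and Hsd17b12 by 0.47. Hacd3 was called lower with -0.15, and Hacd1 and Tecr were not called. In NRK-49F cells, 3 of the 21 were higher, Hacd2 (0.54), Mlycd (0.51), which degrades malonyl-CoA, and Me1, and 5 were lower. The largest of these falls were those of Fads3, a homolog of Fads1 and Fads2, with -1.11 (edgeR, SE 0.095, adjusted p = 4.75e-09), Hacd4 with -1.08 and Cyb5r3 with -0.48, and the other two, Degs1 and Elovl1, named after their values were seen, had -0.34 and -0.23. Fads3 went from 112 ± 10.4 (SD, n = 6) to 51.5 ± 3.87 FPM (SD, n = 5), while the epithelial line had 182 ± 18.2 FPM at pH 7.4 and 225 ± 29.4 FPM at pH 6.0 (SD, n = 6 each), where Fads3 was called higher, as was Fads2.

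Genes that activate fatty acids and build them into glycerolipids had 9 of 18 higher and 6 lower in the epithelial line (median 0.33), against 8 higher and 2 lower in the fibroblasts (median 0.31). The shares of all genes were 24.7% and 36.6% in the epithelial line and 14.5% and 14.4% in the fibroblasts. In NRK-52E cells Lpin1, a phosphatidate phosphatase, rose by 1.35, the acyl-CoA ligases Acsl4 and Acsl1 by 1.31 and 0.95, while on the same log2 scale the acyltransferases Gpat3 and Dgat2 and the phosphatase Lpin3 fell by 0.82, 0.76 and 0.65. In NRK-49F cells Lpin3 (1.02), Acsl3 (0.65) and Acsl1 (0.64) had the largest rises and Agpat5 (-0.65) and Agpat1 (-0.28) were lower. Lpin3 thus moved in opposite directions in both lines, with a difference of -1.67 (edgeR, adjusted p = 6.23e-08). So did Gpat3 and Dgat2, which were called higher in NRK-49F cells with 0.34 and 0.59. Their differences were -1.16 and -1.35 (edgeR, adjusted p = 2.25e-07 and 1.09e-05). Agpat3, named after its values were seen, was called lower in NRK-52E cells with -0.28 and higher in NRK-49F cells with 0.28.

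The genes whose levels ran most like those of Fasn over the 23 samples were Fam193a, Cnnm4 and Tbc1d23. Their distance to Fasn, the root mean square difference of centred log2(FPM + 1), was 0.19, 0.22 and 0.23, against 0.75 for the spread of Fasn itself, among the 10237 genes expressed highly enough to be compared (mean of 5 FPM or more). Fam193a had means of 48.9 and 134 FPM in NRK-52E cells at pH 7.4 and 6.0 and of 41.1 and 36.4 FPM in NRK-49F cells. For Scd the nearest genes were Anxa5, Ehd4 and Klf6 at distances of 0.29, 0.31 and 0.32, against 1.08 for Scd itself, and all 3 were higher in NRK-49F than in NRK-52E cells by their means. Scd had means of only 0.324 and 0.610 FPM in NRK-52E cells at pH 7.4 and 6.0, so the 1 added to FPM shrinks its differences in this measure. Its nearest genes therefore need not share its fold changes.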

How the data were processed

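Poly(A) RNA of 23 samples of NRK-52E and NRK-49F cells was sequenced in read pairs. The authors mapped the reads with HISAT2 and counted them on exons of Ensembl genes with featureCounts, multi-mapping reads included, and the deposited values are raw counts without normalization. The paper's methods name the rat genome rn7 and the submitters' processing notes rn6 with HISAT2 2.1.0, and the strand setting is not given in the sources used here. Chromosomes are those of the deposited table. A further 13 count columns were not used, since they match no sample label. Of genes with more than 10 counts, no pair of samples had identical counts in more than 1.27%.

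Samples were grouped by the labelled cell line and pH. A single model of 4 conditions was fitted to all 23 samples (edgeR 4.0.16 under R 4.3.3), after filterByExpr (minimum count 10, minimum total 15) and TMM scaling. This left 14777 of 22243 genes with a count. The quasi-likelihood test was used with an adjusted p under 0.05 (Benjamini-Hochberg over all genes tested). Sample groups were compared in a model with 8 conditions. A standard error is the absolute log2 fold change divided by the square root of F. FPM came from edgeR's cpm function with the TMM-scaled library size, and 3 counts were taken as the detection limit, which covers counting error only. Acacb was tested by an exact permutation test over samples. Replicate codes are not shared between conditions, so comparisons are unpaired. Only the acid responses and their difference in the model of 4 conditions were checked on simulated counts. These had no effect of sample group and far fewer changed genes than were called here. The comparisons of the lines, the model with 8 conditions and the permutation test were not checked in this way.

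The genes and the lists beside them were chosen with earlier results of these data known, and the lists were written from general knowledge. All 10 genes are named. Of each list and line, at most the 3 largest rises and falls among called genes are named, with Srebf1, Srebf2, Insig1, Slc25a1, Me1 and Scd2 in any case, and for Fasn and Scd the 3 genes nearest in level. A gene that this rule names is not reported here. Mlxipl, Mid1ip1, Fdps, Lbr, Krt19 and Ocln are listed genes that were not analysed here. Promoter windows are RefSeq's (GRCr8), searched on both strands. The alternatives were other scalings (RLE, upper quartile, total counts), no filter, DESeq2 1.42.0, each line or sample group alone, the sample group as a block, and each replicate left out. Figures were drawn with matplotlib 3.10.9.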

Additional observations from a re-analysis of the deposited data

Results flagged for a closer look

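Samples far from the others of their condition were sought in 40 sets of values (10 genes in 4 conditions), of which chance flags about 1 in 20. Acss2 in A052 (25.8 FPM) stood above the other NRK-49F samples at pH 7.4, Fads1 in A034 (66.1 FPM) above the other NRK-52E samples at pH 7.4, and Fads1 in A042 (133 FPM) above the other NRK-49F samples at pH 6.0.

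The acid response differed between the lines by the test of the difference (NRK-52E minus NRK-49F, log2 scale) for 8 genes. It was 2.78 for Fads2, 2.05 for Acss2, 1.81 for Fasn, 1.28 for Scd, 0.96 for Acly, 0.59 for Fads1, -0.71 for Elovl5 and -1.23 for Elovl6. Within NRK-52E cells, the response in sample group 3 minus that in group 1 was -0.48 for Fads1, -0.71 for Acss2 and -0.78 for Acaca.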

How the results depend on the processing

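Counts of called genes per direction in the responses, their difference and the lines stayed within 1.5 times of the reported value under all alternatives, except that within sample group 4 alone 1 gene was lower in NRK-49F cells instead of 3. The number of genes whose response differed between the sample groups of NRK-52E cells, 3, was 0 with scaling by total counts, 1 without the filter and 1 to 3 with a replicate left out. Acaca was also not called in that contrast with RLE or upper quartile scaling (adjusted p = 0.0561 and 0.0718, edgeR). DESeq2 changed none of the 45 calls it was run on, and the sample group as a block changed none of its 27. Changes of sign concerned values that were not called. Acaca in NRK-52E cells was -0.0096 with upper quartile scaling, -0.00145 with total counts, -0.043 with the block, -0.36 within sample group 3 and -0.089 to 0.13 with a replicate left out. Elovl5 in NRK-52E cells was 0.0068 with the line fitted alone and 0.10 within sample group 1, and Fads1 -0.037 within sample group 3. In NRK-49F cells Elovl6 was 0.019 and Scd 0.13 within sample group 4. With a replicate left out, Elovl6 and Acaca ranged from -0.16 to 0.11 and from -0.17 to 0.0088 in NRK-49F cells, the difference of Acaca between the lines from -0.00995 to 0.21, and that of Scd between the sample groups of NRK-52E cells from -0.24 to 0.61. The fall of Fasn in NRK-49F cells was not called with total counts (adjusted p = 0.0661, edgeR) or without the filter (adjusted p = 0.05001, edgeR), and the cause was not tested. Counts were low for Acacb in both lines (at most 15 per sample) and for Scd in NRK-52E cells (at most 19). No paired analysis was possible because replicate codes are not shared between conditions.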
